A study of Mus musculus with 16 samples.

Results

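The genes described here are 39 genes of the core autophagy machinery, followed across sorted colon epithelium of mice labelled WT and SpdefKO, the latter for the transcription factor Spdef. They were taken by symbol from a list, all 39 were present among the 21442 gene rows of the count table, and Atg101 was found under its older symbol 9430023L20Rik. RNA was sequenced from cells of the distal colon of mice 6 to 8 weeks old. All mice carried the RedMUC298trTg reporter, which marks goblet cells with mCherry, and the labels name no treatment. Goblet cells (GC, mCherry positive) and the remaining epithelial cells (EC, mCherry negative, labelled colonocytes) were sorted from reporter mice (WT) and from reporter mice labelled RedMUC298trTg_SpdefKO, which the series describes as Spdef -/-. The labels do not say how Spdef was deleted. This gave 4 groups of 4 libraries each, WT_EC, WT_GC, SpdefKO_EC and SpdefKO_GC. Goblet cell RNA was purified on another type of column than EC RNA, so the purification and the sorted fraction cannot be told apart. Whether each library is its own mouse is not stated in the labels, and p-values therefore speak only of library-to-library spread, some of which may be technical. Each EC library has a GC library of the same genotype with the neighbouring number in its title (9 and 10, for example), and the labels do not say what the numbers mark. The 2 libraries of each such pair deviated together from their group means, so comparisons of GC with EC were also fitted with a term for each pair, called the pair block here.

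Autophagy encloses cytoplasm in a double membrane, the autophagosome, and delivers it to lysosomes for degradation. The ULK kinase complex starts the process, vesicles with ATG9 and the lipid transfer proteins ATG2 supply membrane, and a class III phosphatidylinositol 3-kinase complex marks the membrane with PI3P, which WIPI proteins read. A conjugation system then attaches the small ATG8 proteins (LC3 and GABARAP) to the membrane, where they hold cargo receptors such as p62, the product of Sqstm1. In goblet cells autophagy proteins are known to support the release of mucin granules. In bulk RNA, fewer cells of a type and less RNA per cell cannot be told apart.

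Libraries held 10085637 to 17111987 gene counts, and 12915 genes, among them all 39 autophagy genes, passed the filter on low counts and were tested. The 9 goblet markers, including Muc2, summed to 48500.1 to 66147 CPM (read counts scaled to a common library size with TMM factors over gene rows) over the 8 GC libraries and to 506 to 732 CPM over the 8 EC libraries. The 8 absorptive colonocyte markers summed to 8511 to 10629.5 CPM in EC. Spdef, the targeted gene, was measured at 370.2 ± 62.2 CPM in SpdefKO_GC against 295 ± 17.7 CPM in WT_GC (SD, n = 4 in each group), and in EC at 2.15 ± 0.988 CPM against 2.69 ± 0.808 CPM. The count over the whole gene was thus not lower in libraries labelled SpdefKO_GC, and genotype comparisons rest on the labels. SpdefKO below stands for libraries labelled so.

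Autophagy transcripts spanned about 2 orders of magnitude per length. Levels are compared between genes as CPM per kilobase of the longest annotated transcript with a curated RefSeq match. In WT_GC, Lamp1, a heavily glycosylated protein of the lysosome membrane, stood first at 167 ± 5.99 CPM per kb (SD, n = 4). Sqstm1, the cargo receptor p62, followed at 149.7 ± 27.1 and Gabarap, a small ATG8 protein, at 137 ± 3.45 CPM per kb. Lamp1 and Sqstm1 did not differ beyond their spread, and neither did Sqstm1 and Gabarap. Nbr1, a cargo receptor related to p62, was next at 69.1 ± 2.56 CPM per kb. Among the ATG8 family in WT_GC the order was Gabarap, Map1lc3b (39.3 ± 2.48), Map1lc3a (31.5 ± 2.95), Gabarapl2 (26.6 ± 2.48) and Gabarapl1 (22.2 ± 3.51 CPM per kb). From Map1lc3a down, neighbours in this order differed by less than the sum of their SDs. With all annotated exons as the length, Map1lc3a (29.7) stood above Map1lc3b (13.2 CPM per kb). Atg16l2, a paralog of Atg16l1, was the lowest member at 1.04 ± 0.142, against 12.6 ± 0.938 CPM per kb for Atg16l1. In WT_EC the first place was held by Sqstm1 at 220.4 ± 25.2 CPM per kb, ahead of Lamp1 at 181 ± 15.3. There too, Sqstm1 and Lamp1 differed by less than the sum of their SDs.

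**Figure D1:**
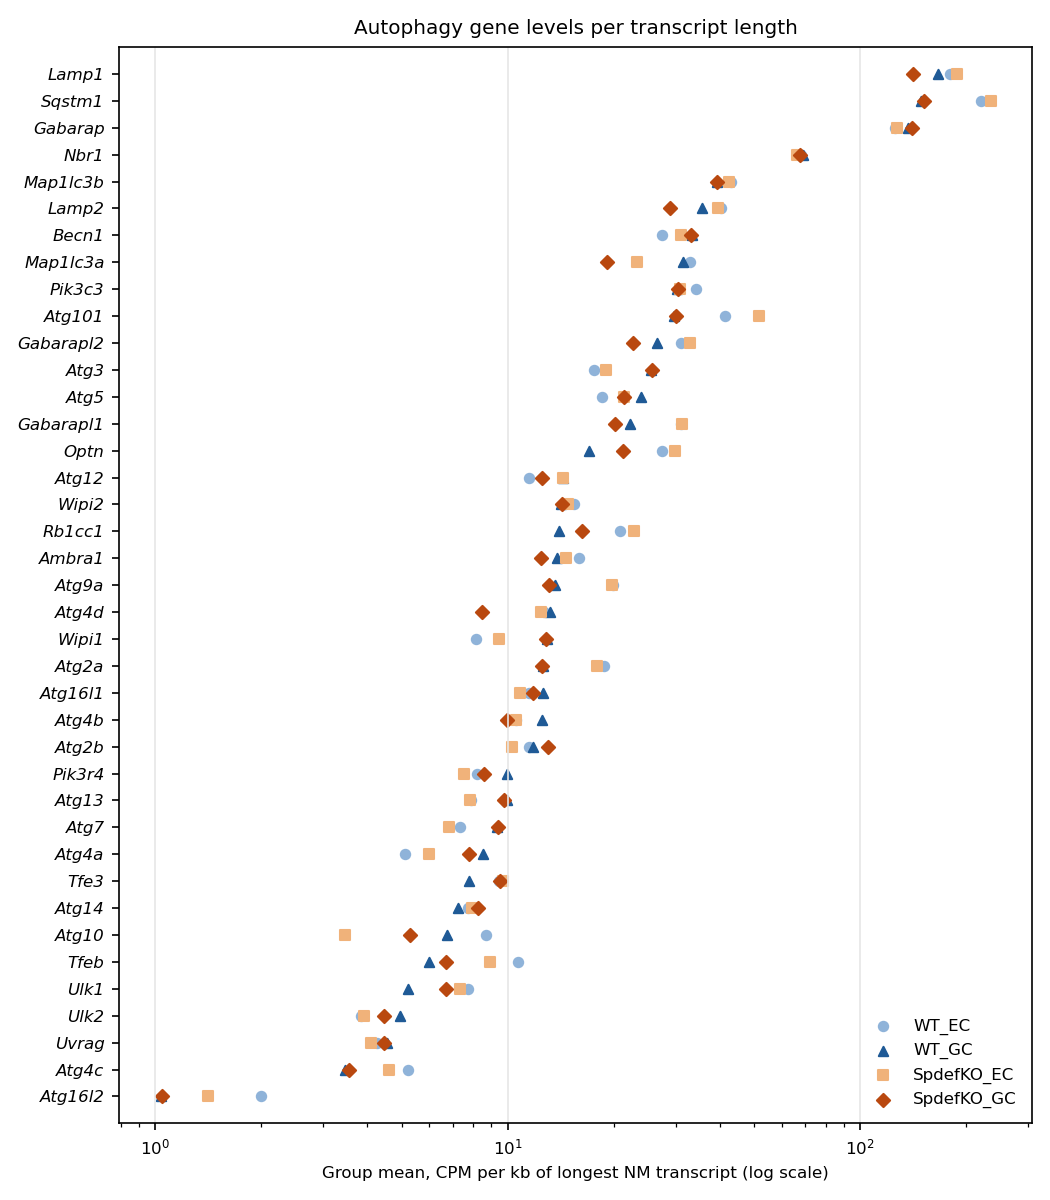
Group mean level of each of the 39 autophagy genes in CPM per kb of transcript (horizontal axis, log scale), ordered by the level in WT_GC, with 1 symbol per group of 4 libraries. Lamp1, Sqstm1 and Gabarap lie at the top in all 4 groups and Atg16l2 at the bottom.

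WT_GC and WT_EC were compared to ask how the machinery differs between goblet cells and the rest of the epithelium. Changes ran in both directions along the pathway. Of 39 genes 11 were higher in WT_GC and 16 lower by the edgeR quasi-likelihood test at an adjusted p under 0.05 (a gene said to have risen, fallen, or been higher or lower passed this test). Over all tested genes 31.0% were called higher and 30.2% lower, so 61.2% were called in all, against 69.2% of the autophagy genes. The median log2 change of the autophagy genes was -0.12, and that of all tested genes 0.051. Single genes ranged from -0.94 to 0.73 on the log2 scale. The summed level of the 39 genes was 3124 ± 135 CPM in WT_GC and 3481 ± 86.7 CPM in WT_EC (SD, n = 4), with ranges that did not overlap. Abundant genes, such as Sqstm1 described below, weigh most in this sum. With upper-quartile factors, which placed the median of all tested genes at 0.136 on the log2 scale, 12 autophagy genes were called higher and 11 lower. With the pair block, chosen after seeing the data, the counts were 12 and 19, against 37.5% higher and 33.9% lower over all tested genes (71.4% called).

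Genes of the complexes that start the pathway went in both directions. Of all tested genes 31.0% were higher and 30.2% lower, so genes called in both directions are common in any set. Among the 5 genes of the ULK complex, Ulk2 and Atg13 were higher in WT_GC and Ulk1, Rb1cc1 and Atg101 lower. Ulk1 and Ulk2 encode related kinases, and they differed in opposite directions (log2 -0.56 ± 0.13, adjusted p = 8.08e-04, and log2 0.36 ± 0.11, adjusted p = 0.0101). Rb1cc1, the scaffold FIP200, averaged 159 ± 8.61 CPM in WT_EC and 106 ± 5.87 CPM in WT_GC (log2 -0.58 ± 0.11, adjusted p = 2.23e-04). Of the membrane supply genes, Atg9a, a membrane-spanning lipid scramblase, and Atg2a, a lipid transfer protein, were lower (log2 -0.55 ± 0.080 and -0.58 ± 0.10), while Atg2b, the paralog of Atg2a, had a log2 change of 0.031 ± 0.076 (adjusted p = 0.740). In the PI3-kinase complexes Becn1, the regulatory subunit Beclin 1, and Pik3r4, the kinase-like scaffold VPS15, were higher (log2 0.28 ± 0.052 and 0.28 ± 0.077), and Ambra1, a Beclin 1 regulator, was lower (log2 -0.21 ± 0.072). Becn1 shares 43.9% of its annotated exon bases with Cntd1 on the opposite strand, which was at 6.37 CPM in WT_GC, and the sources used here do not give the strand setting of the counting, so its value is uncertain. Pik3c3, the catalytic subunit, Atg14 and Uvrag did not pass, and with the pair block Pik3c3 was called lower (log2 -0.18 ± 0.060, adjusted p = 0.0111).

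Wipi1, a reader of PI3P on forming autophagosomes, was among the genes furthest above EC. Wipi1 was at 16, 15.1, 14.9 and 20.8 CPM in WT_EC libraries 10, 12, 14 and 17. It was at 24.2, 31.1, 23.2 and 28.0 CPM in WT_GC libraries 9, 11, 13 and 18 (log2 0.67 ± 0.17, adjusted p = 0.00210). Each WT_GC library lay above each WT_EC library. Values of single libraries are given in these orders below. Wipi2, its relative, did not pass (log2 -0.12 ± 0.099, adjusted p = 0.297) but was called lower with the pair block (adjusted p = 0.0441).

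Of the 7 genes that attach ATG8 proteins to membranes 4 were higher and 2 lower in WT_GC, beside 31.0% higher and 30.2% lower of all tested genes. Atg3, the E2-like enzyme, rose from 36.3 to 52.5 CPM (log2 0.53 ± 0.089, adjusted p = 4.28e-05). Atg7, the E1-like enzyme, and Atg5 and Atg12, which are joined to each other to form part of the E3-like complex, were higher by 0.34 ± 0.096, 0.37 ± 0.081 and 0.32 ± 0.064 on the log2 scale. Atg16l1, which places that complex on the membrane, did not pass (log2 0.13 ± 0.095, adjusted p = 0.266). The lower genes were Atg16l2 and Atg10, the E2-like enzyme that joins ATG12 to ATG5 (log2 -0.38 ± 0.13). Atg16l2 was at 11.7, 14.8, 9.36 and 15.6 CPM in WT_EC and at 7.19, 6.69, 5.40 and 7.47 CPM in WT_GC (log2 -0.94 ± 0.17, adjusted p = 7.86e-05). Its groups did not overlap, and its WT_EC libraries were the more scattered.

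Promoters of the conjugation genes Atg3, Atg5 and Atg7 and of Lamp1 are shown because they hold CACGTG, the E-box core bound by TFEB and TFE3, the factors that drive lysosome and autophagy genes and whose own transcripts are described next. Sequences are from RefSeq on GRCm38.p6, 250 bases before to 50 after the start site, and were found for 33 of the 39 genes (39 promoters). Both strands were covered since CACGTG is its own reverse complement, as is the longer CLEAR palindrome, in which it stands between GT and AC. CACGTG was present in 5 of 39 autophagy gene promoters (12.8%) and in 2349 of all 32851 promoters (7.15%). The longer palindrome was in 0 of the 39 and in 107 of 32851 promoters (0.326%). The fifth promoter, of Atg14, had its match across the start site. Lamp1 had 4 matches, starting at positions -61 to -15 from its start site, and at least 4 matches were held by 8 of the 32851 promoters (0.0244%). The Atg7 stretch lies inside the annotated gene (chr6:114643097-114860614), so it belongs to an internal start site. Those of Lamp1, Atg3 and Atg5 lie just before the first base of their genes. Matches are in capitals, on the strand of the gene (all plus), and are a description of the letters.
Lamp1, chr8:13159088-13159160: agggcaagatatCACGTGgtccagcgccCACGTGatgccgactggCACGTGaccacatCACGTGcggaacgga
Atg3, chr16:45158723-45158775: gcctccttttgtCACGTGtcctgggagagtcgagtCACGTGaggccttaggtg
Atg5, chr10:44268313-44268338: cggagcgcttgcCACGTGgtcttggt
Atg7, chr6:114670952-114670981: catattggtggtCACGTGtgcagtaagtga

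Both transcription factors of the list were lower in WT_GC. Tfeb was at 24.9, 25.7, 23.0 and 26.7 CPM in WT_EC and at 15.8, 14.6, 13.1 and 12.5 CPM in WT_GC (log2 -0.84 ± 0.096, adjusted p = 3.76e-07). The groups did not overlap. Tfe3 had a log2 change of -0.29 ± 0.11 (adjusted p = 0.0281). Of the genes with CACGTG shown above, Atg3, Atg5 and Atg7 (with its match at an internal start site) were higher in WT_GC. Lamp1 did not pass (log2 -0.12 ± 0.071, adjusted p = 0.170), and neither did Atg14, whose match lies across the start site. Of all tested genes 31.0% were higher. Any link between the levels of the factors and of these genes was not tested.

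The 4 proteases that process ATG8 proteins differed among themselves. Atg4a was at 10.3, 11.5, 12.7 and 10.8 CPM in WT_EC and at 19.8, 19.1, 17.9 and 18.2 CPM in WT_GC (log2 0.73 ± 0.094, adjusted p = 1.71e-06), the largest increase of the 39 genes. Atg4c went the other way, from 16.6, 16.2, 15.2 and 18.5 CPM in WT_EC to 10.9, 10.7, 11.2 and 11.1 CPM in WT_GC (log2 -0.60 ± 0.11, adjusted p = 1.66e-04). For both genes the groups did not overlap. Atg4b, the main protease of LC3, was higher (log2 0.24 ± 0.064), and Atg4d did not pass (log2 0.055 ± 0.076, adjusted p = 0.548).

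Among the 5 ATG8 proteins and 3 cargo receptors, 4 genes were lower in WT_GC and 0 higher by edgeR, limma-voom and DESeq2. Over all tested genes 30.2% were lower and 31.0% higher by edgeR. Of the ATG8 and receptor genes 5 had an unadjusted p under 0.05 by edgeR. With upper-quartile factors Gabarap was called higher (adjusted p = 0.00514) and Gabarapl2 was not called. With the pair block Gabarap was called higher (log2 0.13 ± 0.051, adjusted p = 0.0333) and Map1lc3b lower (log2 -0.13 ± 0.051, adjusted p = 0.0269). Gabarapl1 and Gabarapl2 were lower (log2 -0.49 ± 0.10 and -0.22 ± 0.084), and Map1lc3a, Map1lc3b and Gabarap did not pass. Gabarapl1 shares 28.3% of its exon bases with 1700101I11Rik on the opposite strand, which was at most at 0.141 CPM in any group. Sqstm1 was at 618, 642, 491 and 605 CPM in WT_EC and at 423, 417, 296 and 465 CPM in WT_GC (log2 -0.56 ± 0.13, adjusted p = 0.00161). Optn, the receptor optineurin, was at 72.8, 75.9, 62.1 and 75.6 CPM in WT_EC and at 47.4, 42.9, 42.6 and 45.5 CPM in WT_GC (log2 -0.68 ± 0.077, adjusted p = 2.85e-07). In both genes each WT_EC library exceeded each WT_GC library. Nbr1 had nearly the same level in both fractions (331 and 327 CPM, log2 0.018 ± 0.074, adjusted p = 0.848). Lamp2, the second lysosome membrane glycoprotein, was lower (log2 -0.19 ± 0.068). The calls of Ambra1, Atg10, Gabarapl2, Lamp2 and Tfe3 were each lost in 3 or 4 of 22 alternative fits, upper-quartile factors among them. The libraries whose omission lost a call were WT_EC 17, WT_GC 9 and WT_GC 13 for Ambra1, WT_EC 14, WT_GC 9 and WT_GC 11 for Atg10, WT_EC 14 and WT_GC 18 for Gabarapl2, WT_GC 9 and WT_GC 13 for Lamp2, and WT_EC 12 and WT_GC 13 for Tfe3. Over the alternatives adjusted p ran from 0.00174 to 0.127 for Ambra1, 0.00573 to 0.0699 for Atg10, 0.0106 to 0.180 for Gabarapl2, 0.00439 to 0.204 for Lamp2 and 0.00240 to 0.117 for Tfe3.

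The same comparison within SpdefKO used 8 other libraries. Of 39 genes 9 were higher in SpdefKO_GC than in SpdefKO_EC and 17 lower, against 28.0% higher and 28.4% lower over all tested genes (56.4% called). With the pair block the counts were 10 and 18, against 34.4% and 33.0% (67.3% called). The median log2 change was -0.086 for the autophagy genes and 0.031 for all genes. With upper-quartile factors the median of all tested genes was 0.146, a shift of over 0.1, the share of called genes that were higher was 60.9% in place of 49.7%, and 13 autophagy genes were higher and 12 lower. The genes lower in goblet cells of both genotypes were 13, which is 81.2% of those lower in WT and 76.5% of those lower in SpdefKO. Over all tested genes the same shares were 78.1% and 82.98%. The 13 were Rb1cc1, Atg101, Atg2a, Atg9a, Ambra1, Atg16l2, Atg4c, Gabarapl1, Gabarapl2, Sqstm1, Optn, Lamp2 and Tfeb. Those higher in both were 6, 54.5% of those higher in WT and 66.7% of those higher in SpdefKO, namely Atg3, Atg7, Atg13, Atg4a, Pik3r4 and Wipi1, against 71.2% and 78.8% over all tested genes. Sqstm1 was again lower (log2 -0.63 ± 0.13, adjusted p = 6.34e-04), as were Optn (log2 -0.49 ± 0.076) and Tfeb (log2 -0.41 ± 0.096). Some genes were called in SpdefKO with other results in WT. Atg4d, Lamp1 and Map1lc3a were lower in SpdefKO_GC than in SpdefKO_EC (log2 -0.55 ± 0.077, -0.42 ± 0.071 and -0.29 ± 0.11) and had not passed in WT. Atg2b and Gabarap were higher (log2 0.34 ± 0.076 and 0.15 ± 0.059) and had not passed in WT either, while Ulk1, Ulk2, Atg4b, Atg5, Becn1 and Tfe3, called in WT, did not pass in SpdefKO. With the pair block Ulk2 was called higher (log2 0.20 ± 0.070, adjusted p = 0.0176) and Map1lc3b lower (log2 -0.12 ± 0.051, adjusted p = 0.0491) in SpdefKO_GC. Atg101 had the largest decrease, from 65.8 to 38.1 CPM (log2 -0.78 ± 0.081, adjusted p = 9.57e-08). Atg10 was higher in SpdefKO_GC (log2 0.61 ± 0.15, adjusted p = 0.00162) and Atg12 lower (log2 -0.19 ± 0.064, adjusted p = 0.0159), both opposite to their calls in WT. The Atg12 call was lost with upper-quartile factors (log2 -0.0773) and without the filter on low counts (adjusted p 0.00898 to 0.294 over 22 alternatives), and upper-quartile factors also ended the calls of Ambra1 and Atg4c (adjusted p = 0.163 and 0.0561). The tests of these differences between genotypes are the interaction tests given further on. Of the genes called in a single genotype, Gabarap, Map1lc3a, Ulk2, Becn1 and Tfe3 did not pass the interaction with or without the pair block. Gabarap had a log2 change of 0.13 in WT and 0.15 in SpdefKO (interaction adjusted p = 0.912).

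Leaving out 1 library ended 5 of the calls of SpdefKO_GC against SpdefKO_EC. That of Gabarap was lost without any of the 4 WT_EC libraries, WT_GC 11, WT_GC 18, SpdefKO_EC 6, SpdefKO_EC 8, SpdefKO_EC 20, SpdefKO_GC 3 or SpdefKO_GC 19 (adjusted p 0.00101 to 0.145 over 22 alternatives). Pik3r4 was lost without WT_EC 12, WT_EC 17, WT_GC 9, WT_GC 11, SpdefKO_EC 4, SpdefKO_EC 8, SpdefKO_EC 20, SpdefKO_GC 3, SpdefKO_GC 5 or SpdefKO_GC 19 (0.00303 to 0.152). Map1lc3a was lost without SpdefKO_EC 6, SpdefKO_EC 8, SpdefKO_GC 3, SpdefKO_GC 7 or SpdefKO_GC 19 (0.00154 to 0.175), Atg16l2 without SpdefKO_EC 6, SpdefKO_GC 3 or SpdefKO_GC 7 (0.0180 to 0.180), and Wipi1 without SpdefKO_EC 4, SpdefKO_EC 8 or SpdefKO_GC 5 (0.00767 to 0.125).

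**Figure D2:**
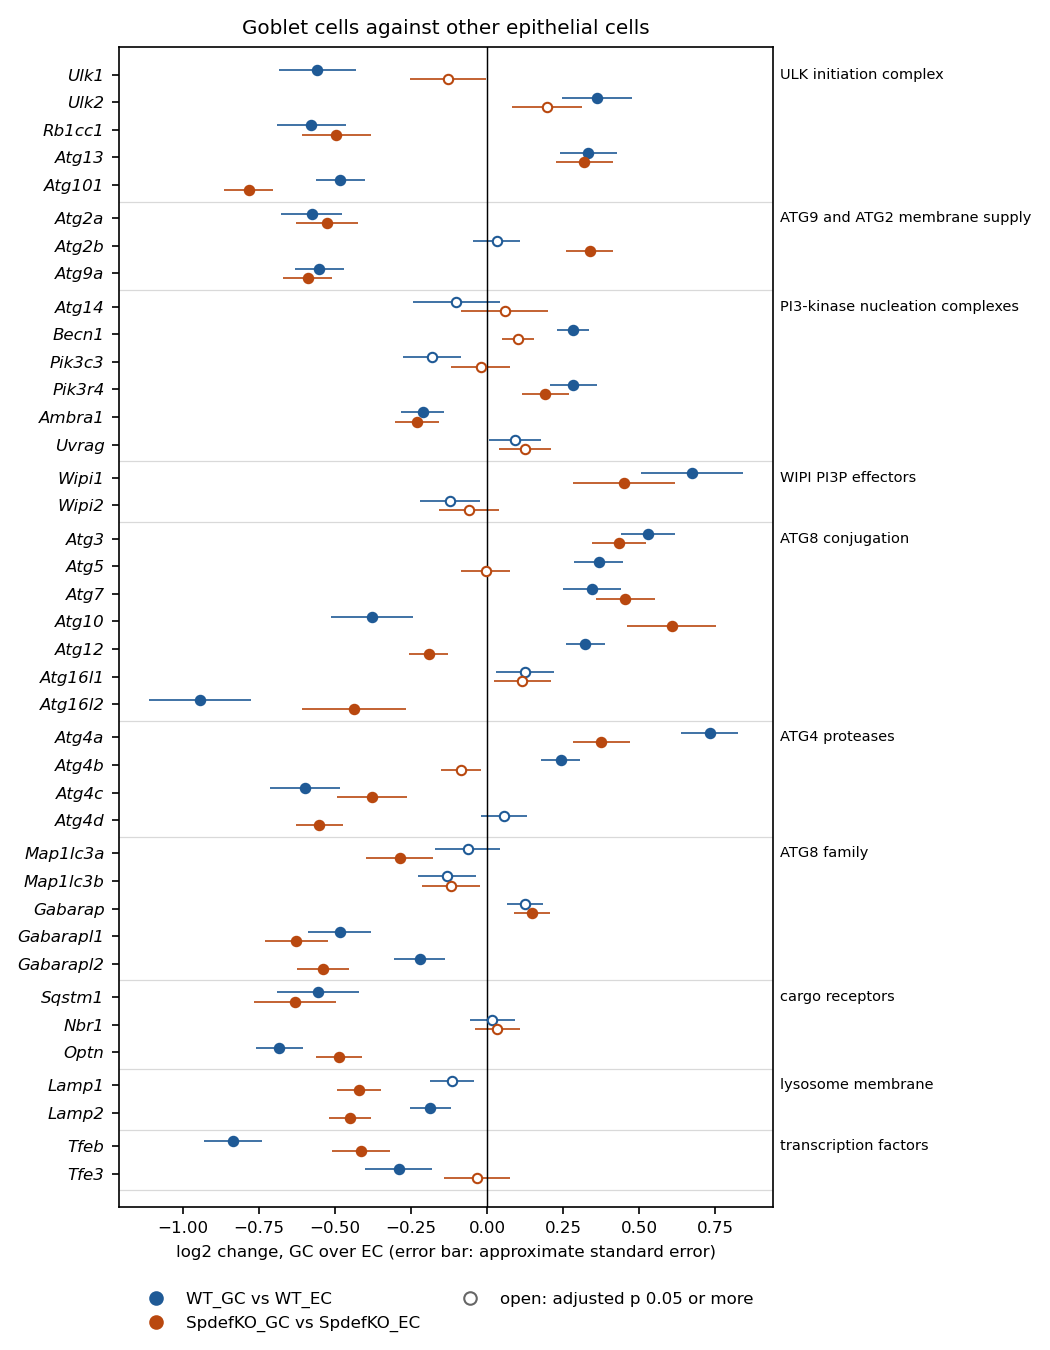
Log2 change from EC to GC (horizontal axis) of each autophagy gene, grouped by role, in WT (blue) and in SpdefKO (orange), each from 4 against 4 libraries, with approximate standard errors. Filled points have an adjusted p under 0.05, and the points of Atg10 and Atg12 are filled on opposite sides of 0 in the 2 genotypes.

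SpdefKO_GC was set against WT_GC to ask which autophagy genes differ between goblet cells of the 2 labelled genotypes. In SpdefKO_GC 7 of 39 genes fell and 1 rose relative to WT_GC, against 11% lower and 10.4% higher over all tested genes (21.4% called). The autophagy genes were called at 20.5%, near that background, with 17.9% lower and 2.56% higher. Their median log2 change was -0.013, and that of all genes 0.0014. The count of lower genes was 4 without SpdefKO_GC 3 or without SpdefKO_GC 7. The count of higher genes was 3 without WT_EC 14 or SpdefKO_EC 20, and 2 without WT_EC 10, WT_GC 11, SpdefKO_EC 4, SpdefKO_EC 6, SpdefKO_GC 3, SpdefKO_GC 7 or SpdefKO_GC 19.

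The 2 ATG4 proteases Atg4d and Atg4b, the ATG8 gene Map1lc3a and the lysosome glycoproteins Lamp1 and Lamp2 were among those that fell. Positions are on GRCm38, the build also called mm10, from GENCODE, and counts are summed over the whole gene. Atg4d (chr9:21265293-21277772, plus strand) was at 77.6, 83.3, 79.8 and 73.6 CPM in WT_GC and at 50.9, 51.4, 50.6 and 48.9 CPM in SpdefKO_GC, whose libraries are numbered 3, 5, 7 and 19 (log2 -0.64 ± 0.077, adjusted p = 8.93e-06). All SpdefKO_GC libraries lay within a narrow band below WT_GC. Atg4d shares 19.3% of its exon bases with Kri1 on the opposite strand, which rose in SpdefKO_GC (log2 0.20, adjusted p = 0.0470). The strand setting of the counting is not given, so the value of Atg4d is uncertain. Atg4b (chr1:93751500-93790610, plus strand) was at 51.1, 52.0, 52.4 and 53.1 CPM in WT_GC and at 43.0, 42.0, 41.8 and 39.8 CPM in SpdefKO_GC (log2 -0.32 ± 0.064, adjusted p = 0.00143). The groups again did not overlap, and Atg4a (log2 -0.14 ± 0.092) and Atg4c (log2 0.031 ± 0.12) did not pass.

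Map1lc3a, which encodes the LC3A form of the ATG8 proteins, had the largest decrease. The gene (chr2:155276297-155278073, plus strand) was at 34.7, 33.5, 32.3 and 39.7 CPM in WT_GC and at 19.8, 26.6, 18.3 and 20.4 CPM in SpdefKO_GC (log2 -0.72 ± 0.11, adjusted p = 1.21e-04). SpdefKO_GC 5 was the highest of its group and still below every WT_GC library. Map1lc3b, its better known paralog, was at 99.6 and 99.4 CPM (log2 -0.0026 ± 0.096, adjusted p = 0.991), and Gabarap had a log2 change of 0.039 ± 0.059.

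Lamp2 (chrX:38401357-38456454, minus strand) was at 127, 121, 125 and 140.1 CPM in WT_GC and at 104, 101, 105 and 107 CPM in SpdefKO_GC (log2 -0.30 ± 0.068, adjusted p = 0.00444). Lamp1 (chr8:13159161-13175338, plus strand) was at 357, 368, 389 and 376 CPM in WT_GC and at 309.8, 327, 295 and 328 CPM in SpdefKO_GC (log2 -0.24 ± 0.071, adjusted p = 0.0214). Neither gene's groups overlapped. Grtp1, which shares 9.31% of the exon bases of Lamp1 on the opposite strand, had a log2 change of -0.084 (adjusted p = 0.497). The Lamp1 call was lost without WT_GC 13, WT_GC 18, SpdefKO_GC 3 or SpdefKO_GC 7 (adjusted p 0.00685 to 0.0699 over 22 alternatives). Pik3r4 and Atg12 passed narrowly. Pik3r4 (chr9:105642978-105687657, plus strand) was at 47.1, 49.6, 48.3 and 45.0 CPM in WT_GC and at 39.2, 45.7, 38.0 and 40.3 CPM in SpdefKO_GC (log2 -0.22 ± 0.077, adjusted p = 0.0475), and its groups overlapped through SpdefKO_GC 5. Atg12 was at 71.4, 67.9, 61.7 and 73.4 CPM in WT_GC and at 59.2, 60.2, 59.8 and 60.4 CPM in SpdefKO_GC (log2 -0.19 ± 0.064, adjusted p = 0.0367). These calls were lost in 15 and 16 of 22 alternatives (adjusted p up to 0.138 and 0.148). For Pik3r4 they included the omission of any single library except WT_EC 14, SpdefKO_EC 6, SpdefKO_EC 8 and SpdefKO_GC 5, and for Atg12 of any except WT_GC 13, SpdefKO_EC 6 and SpdefKO_EC 8.

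Optn was the member that rose in goblet cells. The gene (chr2:5020642-5064051, minus strand) was at 47.4, 42.9, 42.6 and 45.5 CPM in WT_GC and at 54.8, 54.0, 52.1 and 61.6 CPM in SpdefKO_GC, each above each WT_GC library (log2 0.32 ± 0.077, adjusted p = 0.00630). Sqstm1 and Nbr1, the other cargo receptors, had log2 changes of 0.021 ± 0.13 and -0.028 ± 0.074 (adjusted p = 0.932 and 0.820). Ulk1 was just short of the threshold (log2 0.36 ± 0.13, adjusted p = 0.0506, from 27.2 to 34.9 CPM) and passed in 11 of 22 alternatives. Among these were the omissions of WT_EC 10, WT_EC 14, WT_GC 11, SpdefKO_EC 4, SpdefKO_EC 6, SpdefKO_EC 20, SpdefKO_GC 3, SpdefKO_GC 7 and SpdefKO_GC 19, and over all alternatives adjusted p ran from 0.0290 to 0.185. Its groups did not overlap, but SpdefKO_GC 5 stood apart at 44.2 CPM, with 31.4 to 32.2 CPM in the others of its group. Every omission just listed keeps SpdefKO_GC 5. Over the alternatives the log2 change of Ulk1 ran from 0.23 to 0.42. Tfeb and Tfe3 had log2 changes of 0.16 ± 0.097 and 0.29 ± 0.11 (adjusted p = 0.259 and 0.0623).

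Summed markers of absorptive and enteroendocrine cells were higher in SpdefKO_GC than in WT_GC, and those of tuft cells overlapped. All 8 absorptive colonocyte markers were detected in both groups, and their sum was 466 to 598 CPM in WT_GC and 867 to 1088 CPM in SpdefKO_GC. The 7 enteroendocrine markers, of hormone-secreting cells, summed to 79.7 to 111 and 189.8 to 282 CPM, again with all 7 detected. The 6 tuft cell markers summed to 31.9 to 42.6 CPM in WT_GC and 17.7 to 39.7 CPM in SpdefKO_GC. The 8 immune markers summed to at most 8.20 CPM and the 6 stromal markers to at most 10.1 CPM in SpdefKO_GC, against 4.36 and 3.12 in WT_GC, where Cd3g was at 0. Their part in the autophagy gene changes was not tested. Optn was at 71.6 CPM in WT_EC, above both GC groups, and the levels of Atg4d (75.7 CPM), Lamp1 (403 CPM) and Lamp2 (146 CPM) in WT_EC also lay above those in SpdefKO_GC.

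**Figure D3:**
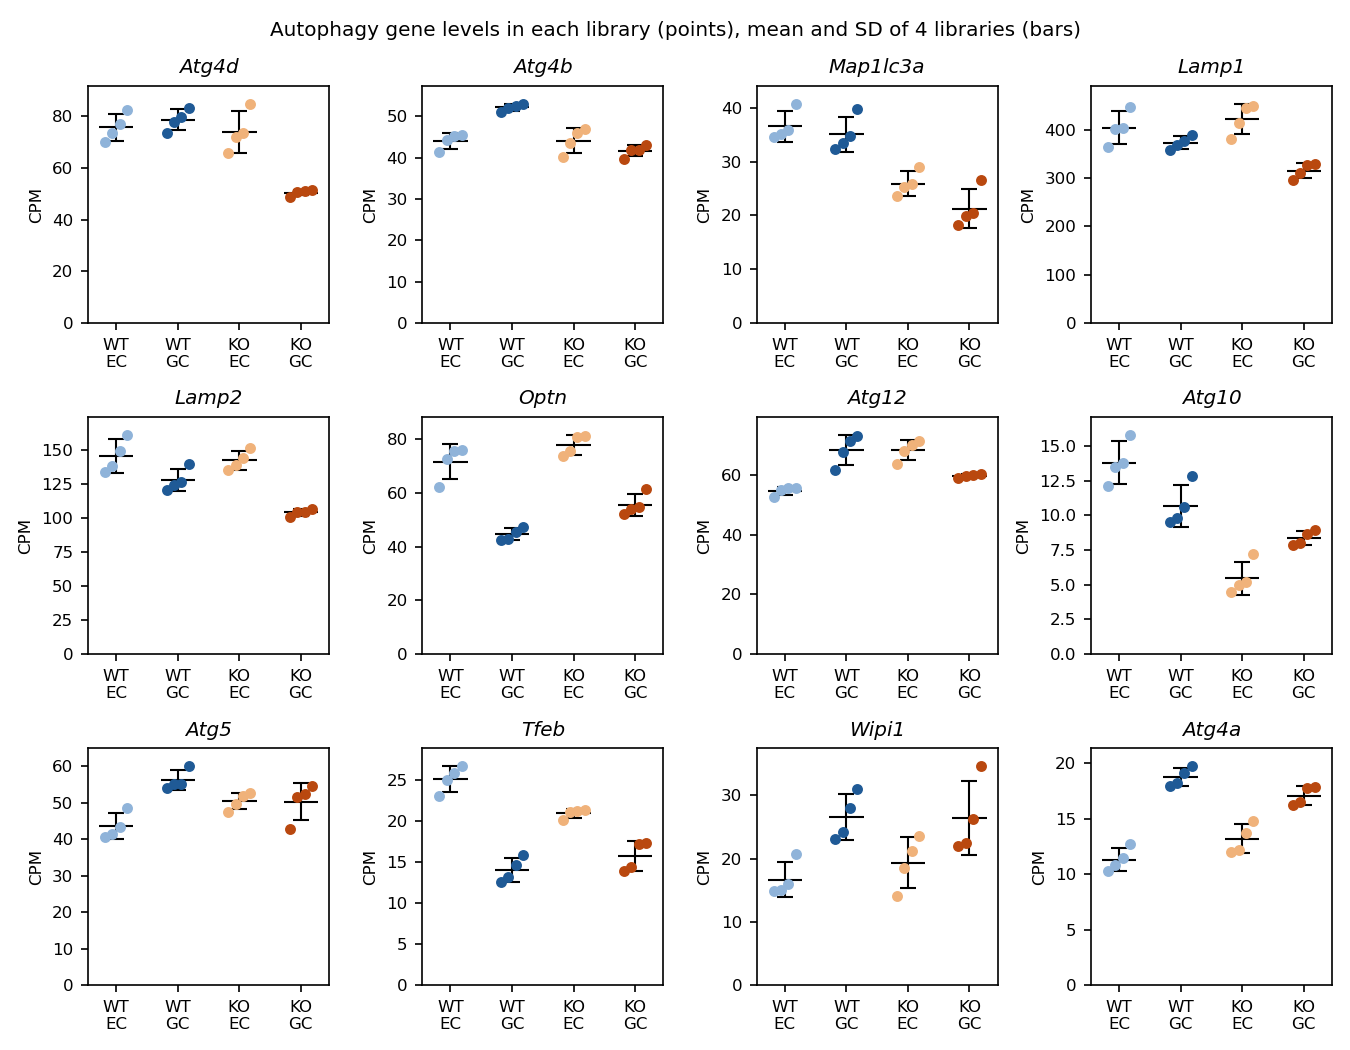
CPM (vertical axis, from 0) of 12 autophagy genes in each of the 16 libraries (points, ordered by value within a group), with the mean and SD of each group of 4 as black bars. KO stands for SpdefKO. The SpdefKO_GC points of Atg4d lie below those of the other 3 groups, and the SpdefKO_EC points of Atg10 below those of the other 3.

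Between the EC groups, 3 autophagy genes of 39 were higher and 2 lower in SpdefKO_EC than in WT_EC, against 6.09% higher and 6.54% lower over all tested genes (12.6% called). The share of called autophagy genes was 12.8%, close to the background. With upper-quartile factors 2 were higher and 4 lower, and over all genes the share of calls that were higher went from 48.3% to 33.1%. Atg10 had the largest genotype change of any autophagy gene. The gene (chr13:90935356-91223968, minus strand) was at 13.5, 12.1, 15.8 and 13.8 CPM in WT_EC and at 4.46, 7.18, 5.00 and 5.21 CPM in SpdefKO_EC libraries 4, 6, 8 and 20 (log2 -1.33 ± 0.14, adjusted p = 1.27e-05). The summed Atg10 counts were 772 and 307. Every SpdefKO_EC library lay below every WT_EC library, and SpdefKO_EC 6 was the highest of its group. In GC, Atg10 was at 9.79, 9.48, 10.6 and 12.8 CPM in WT_GC and at 7.97, 8.61, 8.90 and 7.88 CPM in SpdefKO_GC (log2 -0.35 ± 0.14, adjusted p = 0.0805), which did not pass although the groups did not overlap.

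Map1lc3a was the other gene that fell in EC, at 35.9, 35.1, 34.6 and 40.8 CPM in WT_EC and 25.2, 29.0, 25.9 and 23.6 CPM in SpdefKO_EC (log2 -0.49 ± 0.11, adjusted p = 0.00603). It was thus lower with SpdefKO in both sorted fractions. Atg12 rose from 55.7, 55.0, 52.6 and 55.8 CPM in WT_EC to 70.1, 68.4, 63.8 and 71.4 CPM in SpdefKO_EC (log2 0.32 ± 0.064, adjusted p = 0.00344). Atg101, a subunit of the ULK complex that stabilises ATG13, rose from 52.6 ± 4.70 CPM to 65.8 ± 4.0 CPM (SD, n = 4; log2 0.32 ± 0.080, adjusted p = 0.0132), and Becn1 from 119.9 ± 2.02 CPM to 135 ± 3.72 CPM (log2 0.17 ± 0.052, adjusted p = 0.0360). For none of these 4 genes did the groups overlap. The Becn1 call was lost in 11 of 22 alternatives (adjusted p 0.00720 to 0.148). They included the omission of any of the 4 WT_EC libraries, of WT_GC 11, and of SpdefKO_EC 4, SpdefKO_EC 8 or SpdefKO_EC 20. Enteroendocrine markers (7 of 7 detected) summed to 519 to 688 CPM in WT_EC and 230.2 to 375 CPM in SpdefKO_EC. Tuft cell markers (6 of 6 detected) summed to 33.8 to 66.1 and 8.44 to 14.5 CPM. Their part in these changes was not tested.

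**Figure D4:**
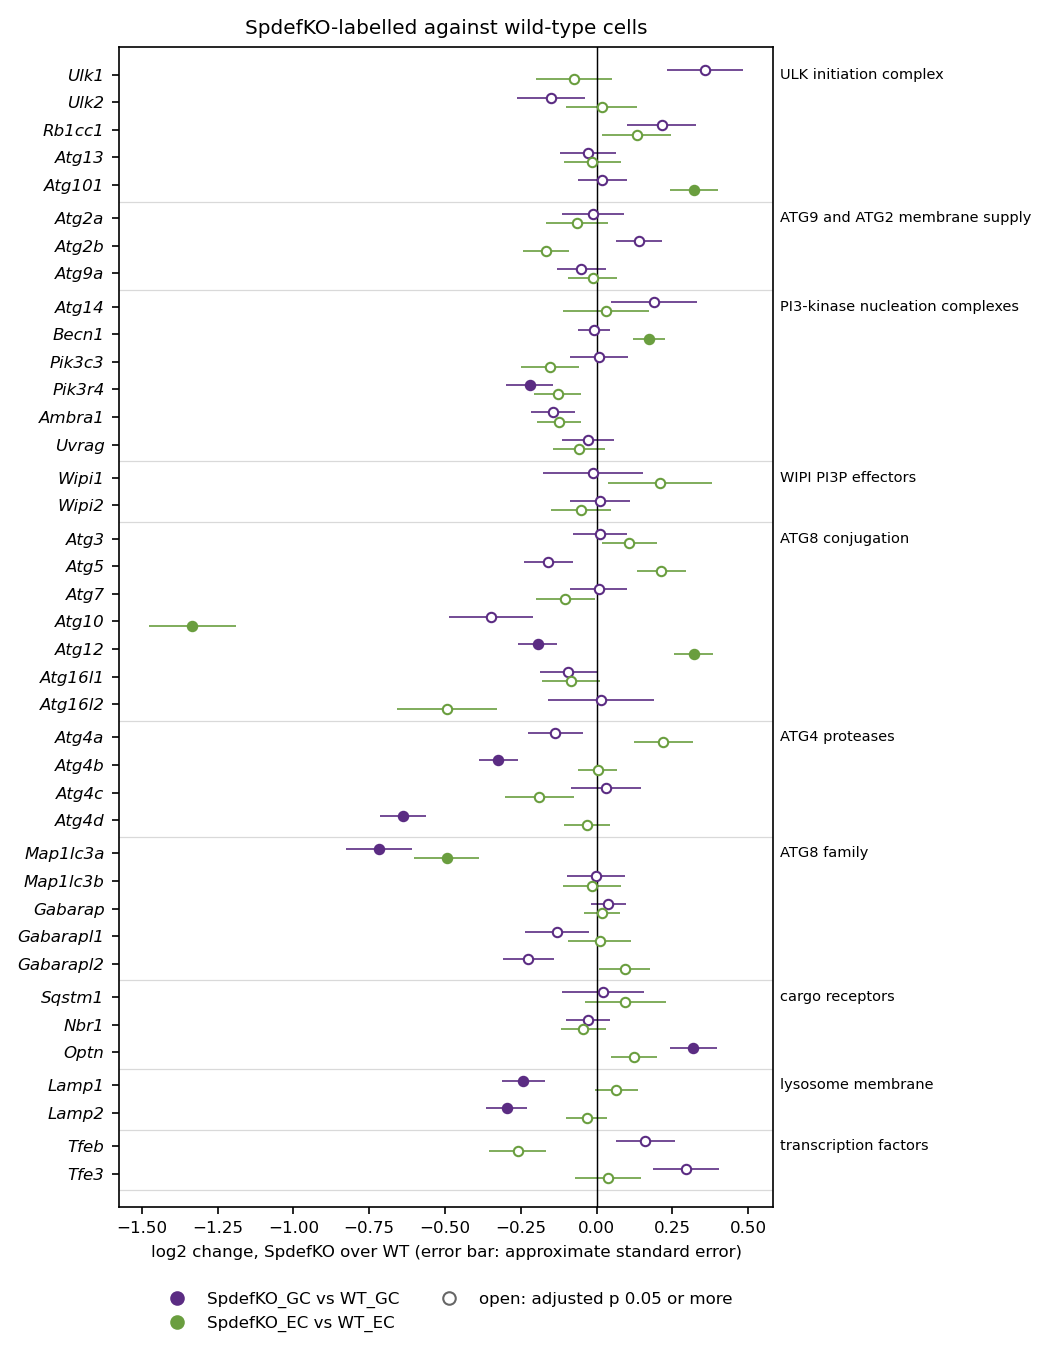
Log2 change from WT to SpdefKO (horizontal axis) of each autophagy gene in goblet cells (purple) and in other epithelial cells (green), each from 4 against 4 libraries, with approximate standard errors. Filled points have an adjusted p under 0.05. Map1lc3a is filled and left of 0 in both, and Atg10 in EC lies furthest left.

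The interaction tested whether the genotype difference in GC differed from that in EC. Of 39 genes 5 passed, 1 higher and 4 lower, against 4.88% higher and 4.65% lower over all tested genes (9.53% called). A lower gene is one whose change with SpdefKO was more negative in GC than in EC. Atg4d had log2 -0.61 ± 0.11, adjusted p = 0.00148, with a log2 change of -0.64 in GC and -0.033 in EC. In EC it was at 77.0, 82.3, 69.9 and 73.6 CPM in WT_EC and at 71.8, 84.9, 73.3 and 65.7 CPM in SpdefKO_EC, with overlapping groups. Kri1, which shares exon bases with Atg4d on the opposite strand, had an interaction of log2 0.33 (adjusted p = 0.0499). It was also higher in SpdefKO_GC than in SpdefKO_EC (log2 0.70, adjusted p = 1.07e-07). With the strand setting unknown, the Atg4d values in both comparisons are uncertain. Atg12 had log2 -0.52 ± 0.091, adjusted p = 0.00141, as it fell in GC and rose in EC. Atg10 had log2 0.99 ± 0.20, adjusted p = 0.00419, with the larger decrease in EC. Atg4d, Atg12 and Atg10 passed in all 21 alternatives and with the pair block.

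The interaction depended on whether the pairs were used. With the pair block 14 of 39 genes passed, 5 higher and 9 lower, against 12.8% higher and 13% lower over all tested genes (25.8% called). The 5 genes that passed without it were among them. The genes added as higher were Ulk1 (log2 0.44 ± 0.089, adjusted p = 0.00104), Atg2b (log2 0.30 ± 0.079, adjusted p = 0.00702), Tfeb (log2 0.42 ± 0.12, adjusted p = 0.0126) and Atg16l2 (log2 0.50 ± 0.16, adjusted p = 0.0292). Those added as lower were Lamp1 (log2 -0.31 ± 0.078, adjusted p = 0.00559), Atg101 (log2 -0.30 ± 0.084, adjusted p = 0.0119), Gabarapl2 (log2 -0.32 ± 0.095, adjusted p = 0.0176), Lamp2 (log2 -0.26 ± 0.081, adjusted p = 0.0195) and Atg4a (log2 -0.36 ± 0.13, adjusted p = 0.0482).

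Without the pair block, Atg4b and Atg5 also passed, near the threshold. Atg4b had an interaction of log2 -0.33 ± 0.091, adjusted p = 0.0284. It was at 45.4, 41.3, 44.4 and 45.1 CPM in WT_EC and 46.9, 43.6, 45.9 and 40.2 CPM in SpdefKO_EC. Atg5 had log2 -0.37 ± 0.11, adjusted p = 0.0465. Atg5 was at 43.4, 40.7, 48.5 and 41.4 CPM in WT_EC, 55.2, 54.1, 60.2 and 55.1 in WT_GC, 52.7, 47.6, 49.6 and 51.9 in SpdefKO_EC and 52.2, 42.8, 54.5 and 51.5 in SpdefKO_GC. It was higher in WT_GC than in WT_EC, while the 2 SpdefKO groups overlapped. Atg4b was lost in 12 of 21 alternatives (adjusted p 0.0141 to 0.0999) and Atg5 in 16 (adjusted p 0.0316 to 0.128). The count of lower genes was 2 without any one of WT_EC 10, WT_EC 12, WT_EC 17, WT_GC 11, WT_GC 18, SpdefKO_EC 4 or SpdefKO_GC 19. The count of higher genes was 3 without WT_EC 14 or SpdefKO_EC 6, and 2 without WT_GC 9, SpdefKO_GC 7 or SpdefKO_GC 19. Tfeb, at 21.2, 21.3, 21.0 and 20.1 CPM in SpdefKO_EC and 17.3, 17.2, 14.3 and 13.9 CPM in SpdefKO_GC, had an interaction of log2 0.42 ± 0.14, adjusted p = 0.0574, which passed in 7 of 21 alternatives (adjusted p 0.0300 to 0.119), 4 of them the omission of WT_EC 14, WT_GC 9, SpdefKO_GC 7 or SpdefKO_GC 19.

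**Figure D5:**
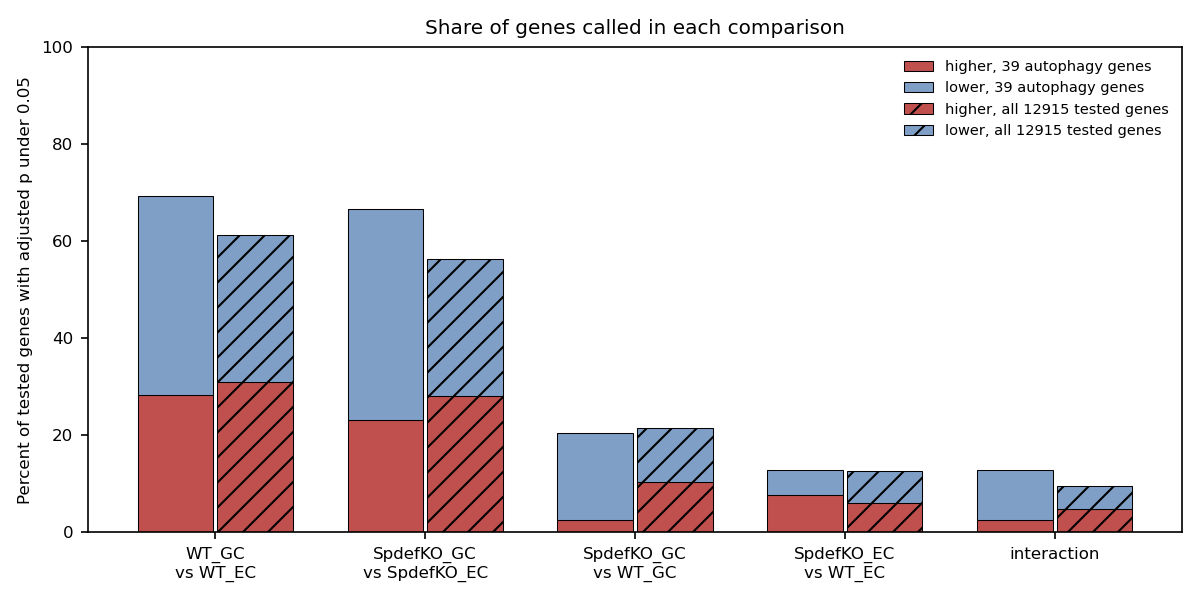
Percent of tested genes (vertical axis) called higher (red) or lower (blue) at an adjusted p under 0.05 in each of the 5 comparisons, for the 39 autophagy genes (plain bars) and all 12915 tested genes (hatched bars). The autophagy genes total 20.5% in SpdefKO_GC vs WT_GC and 12.8% in SpdefKO_EC vs WT_EC, beside 21.4% and 12.6% of all genes.

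Neighbouring parts of the pathway are given for context, from lists chosen alongside the 39 genes. Their counts stand beside 31.0% higher and 30.2% lower of all tested genes in WT_GC vs WT_EC, and 10.4% higher and 11% lower in SpdefKO_GC vs WT_GC. Among 38 lysosomal enzymes and membrane proteins, 11 were higher and 17 lower in WT_GC than in WT_EC (median log2 -0.12). Lipa, the lysosomal acid lipase, Ctss, the protease cathepsin S, and Neu1, a sialidase, were lowest (log2 -2.98 ± 0.18, -2.89 ± 0.083 and -2.05 ± 0.10). Naglu, Smpd1 and Hexa, enzymes that degrade heparan sulfate, sphingomyelin and gangliosides, were highest (log2 0.99 ± 0.087, 0.83 ± 0.082 and 0.83 ± 0.076). With SpdefKO in goblet cells 14 of these 38 genes (36.8%, against 11% of all tested genes) fell and 0 rose by edgeR (14 and 1 by limma-voom and by DESeq2; median log2 -0.17, and 22 had an unadjusted p under 0.05 in either direction). Ctsf, the protease cathepsin F, stood at 10.8 CPM in WT_GC against 2.67 CPM in SpdefKO_GC (log2 -2.02 ± 0.18, adjusted p = 1.57e-07).

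Of 16 genes of the vacuolar proton pump, which acidifies lysosomes, 15 were tested, and 5 were higher and 3 lower in WT_GC. Atp6ap2, an accessory subunit, stood at 617 against 139.7 CPM (log2 2.14 ± 0.079, adjusted p = 3.85e-14). With SpdefKO in GC 4 fell (26.7%) and 1 rose, with Atp6ap2 (log2 -0.36 ± 0.076) and Atp6v0b, a membrane subunit (log2 -0.39 ± 0.074), lower and Atp6v0a1, another membrane subunit, higher (log2 0.25 ± 0.069). Among the 29 tested of 30 genes of mTORC1 and AMPK control, the nutrient and energy sensors that restrain or start autophagy, 10 were higher and 7 lower in WT_GC (34.5% and 24.1%). They included Prkaa1 and Prkab1, subunits of AMPK (log2 -0.55 ± 0.067 and -0.72 ± 0.089), and Sesn1, a stress-induced inhibitor of mTORC1 (log2 0.75 ± 0.14). With SpdefKO in GC 1 of these rose, Sesn3 (log2 0.28 ± 0.089), and 0 fell by edgeR, limma-voom or DESeq2, while 4 had an unadjusted p under 0.05 in either direction by edgeR.

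Of 16 tested receptors of selective autophagy and ER-phagy 5 were higher and 4 lower in WT_GC (31.25% and 25%), beside 31.0% and 30.2% of all tested genes. ER-phagy receptors deliver parts of the endoplasmic reticulum to autophagosomes. The list was written to hold such receptors, Rtn3 and Tex264 among them. The 3 with the largest increase among those at 5 CPM or more were of this kind, which partly follows from the make-up of the list. Sec62 and Ccpg1, both of the endoplasmic reticulum membrane, were higher by 1.20 ± 0.083 and 1.07 ± 0.11 on the log2 scale, and Retreg1, counted under its older symbol Fam134b, by 0.71 ± 0.12. Bnip3, a receptor for mitochondria, was lower (log2 -1.63 ± 0.19, from 22.0 to 7.10 CPM). With SpdefKO in GC 3 of 16 (18.8%, against 11% of all tested genes) fell and 0 rose by edgeR (3 and 0 by limma-voom, 3 and 1 by DESeq2, and 6 with an unadjusted p under 0.05 by edgeR), among them Retreg1, from 362 ± 11.3 CPM to 249 ± 33.0 CPM (SD, n = 4; log2 -0.54 ± 0.11, adjusted p = 0.00269), and Tex264 (log2 -0.41 ± 0.082). Among accessory genes of autophagosome assembly and fusion, 10 of 28 tested were higher and 9 lower in WT_GC, near the shares of all tested genes (31.0% and 30.2%). Trp53inp1, which binds ATG8 proteins, stood at 528 against 158 CPM, and Stx17, the SNARE of autophagosome fusion with lysosomes, at 87.6 against 32.2 CPM (log2 1.44 ± 0.088, adjusted p = 4.26e-11). Plekhm1, an adaptor of that fusion, was lower (log2 -1.71 ± 0.10). With SpdefKO in GC 3 fell and 1 rose, with Tecpr2 (log2 -0.54 ± 0.080) and Vmp1, a membrane protein of autophagosome formation (log2 -0.35 ± 0.075), lower and Stx17 higher (log2 0.25 ± 0.084).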

How the data were processed

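The files hold RNA sequencing of 16 libraries, 4 in each of 4 groups, made with a stranded total RNA kit after removal of ribosomal RNA, per the labels' protocols. The authors deposited whole-number read counts per gene symbol, and mm10 is the build in the submitters' processing notes, which list DESeq2 1.14, HTSeq 0.6.1p1, STAR 2.4.0f and FastQC 0.11.2. The sources used here do not give each tool's role, the annotation or the strand setting. A second deposited table of size-factor scaled values was not used. The 3 entries that name no gene held 47.1 to 54.7% of the counts and were left out of every step. No 2 libraries of a group agreed within sampling noise (4.33 to 32.5 chi-square units per degree of freedom).

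Tests used edgeR 4.0.16 in R 4.3.3 (TMM factors, default filter on low counts by group, robust quasi-likelihood fit of 1 model with a term per group over all 16 libraries) with Benjamini-Hochberg adjustment over 12915 genes at 0.05. Values after ± are SDs for levels and approximate standard errors (the log2 change divided by the root of the F statistic) for changes. The scripts were tested on simulated counts. Alternatives were RLE and upper-quartile factors, no filter, limma-voom (limma 3.58.1), DESeq2 1.42.0, a fit of the compared groups alone, and leaving out each library. A fit with a term per pair of EC and GC libraries with neighbouring title numbers was added after seeing the data and is not among the 21 or 22 alternatives over which ranges are given. Over 12915 genes the log2 deviations from the group means of paired libraries correlated at 0.125 to 0.613 (8 pairs). Each library was compared only with those of the other fraction of its genotype, and among these it correlated best with its own partner. For WT_EC 12 the next highest was close, 0.103 against 0.125 with WT_GC 11. The pairing comes from the numbers and this check, not from a statement in the labels.

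The 39 genes and the other lists were chosen with earlier results of these data known. Values of every library are given for genes called between genotypes in goblet cells or in the interaction, or changed at least 1.5-fold in WT_GC vs WT_EC, and were added for Sqstm1 after its values were seen. From each other list, up to 3 called genes per direction in WT_GC vs WT_EC and up to 2 in SpdefKO_GC vs WT_GC, of the largest change and at least 5 CPM in the higher group, could be named.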

Additional observations from a re-analysis of the deposited data

Results flagged for a closer look

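In 4 of 156 sets of 4 libraries (39 genes in 4 groups), 1 library stood apart from the other 3 by Dixon's test at its 95% critical value, which chance passes in about 1 of 20 sets. Ulk1 was at 44.2 CPM in SpdefKO_GC 5 and at 31.4 to 32.2 CPM in the others. SpdefKO_EC 6 held 86.3 CPM of Atg2b, with 73.9 to 75.5 CPM in the others of its group, and 12.1 CPM of Atg16l2, with 7.86 to 8.44 CPM in the others. Becn1 was at 117 CPM in WT_EC 10 and at 121 CPM in the other 3 WT_EC libraries.

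The genotype difference differed between goblet cells and other epithelial cells for 5 genes by the edgeR interaction test. Atg10 had an interaction of 0.99 ± 0.20 on the log2 scale (adjusted p = 0.00419), with a smaller decrease in GC (-0.35) than in EC (-1.33). Atg4d (-0.61 ± 0.11, adjusted p = 0.00148), Atg12 (-0.52 ± 0.091, adjusted p = 0.00141), Atg4b (-0.33 ± 0.091, adjusted p = 0.0284) and Atg5 (-0.37 ± 0.11, adjusted p = 0.0465) had a more negative genotype change in GC.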

How the results depend on the processing

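Of 195 pairs of a gene and a comparison 71 were called, 52 of these in every alternative other than the block given below and 19 not in at least 1, and 19 others were called in at least 1. None of the 71 changed sign. Of 105 pairs called in none of these, 52 changed sign in at least 1 alternative, all with a log2 change of at most 0.094 in size as reported. The count of genes higher in SpdefKO_GC vs WT_GC (1) was 2 with RLE factors, 3 with DESeq2, 2 with only the groups compared, and 1 to 3 with 1 library left out. The count lower there (7) was 4 to 8 with 1 library left out. In SpdefKO_EC vs WT_EC the count lower (2) was 4 with upper-quartile factors. The count with a higher interaction (1) was 2 with RLE factors, 2 with upper-quartile factors, 2 with DESeq2 and 1 to 3 with 1 library left out. The count with a lower interaction (4) was 2 without the filter on low counts and 2 to 5 with 1 library left out. The cause of these changes was not tested. All other counts stayed within 1.5 times their value under these alternatives. A group with 1 library left out keeps 3. Among the autophagy genes the fewest counts behind a group's level were 307, for Atg10 in SpdefKO_EC. With a replicate block of EC and GC libraries with neighbouring numbers, added after seeing the data, the counts with a higher and a lower interaction became 5 and 9, the counts in both comparisons of GC with EC stayed within 1.5 times, and no call was lost. The pairs lie within a genotype, so the block gives no value between genotypes.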
